A study of Mus musculus with 6 samples.

Results

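The small leucine-rich proteoglycans are secreted matrix proteins built on a core of leucine-rich repeats. The 8 genes described here are Dcn, Bgn, Lum, Fmod, Ogn, Prelp, Omd and Aspn, taken by gene symbol, and all 8 were found among the 16854 genes of the deposited table. They were measured in C2C12 cells, an established mouse myoblast line that stops dividing and fuses into myotubes when serum is withdrawn. The tested group was 3 libraries of C2C12 cells carrying a stably expressed short hairpin RNA against Adamtsl2 (shAdamtsl2), and the control group was 3 libraries of C2C12 cells with a scrambled hairpin. All 6 libraries were made on day 3 after confluent cultures were moved to medium with 2% horse serum, and messenger RNA was sequenced after poly(A) selection. The series title places the comparison in the control of Wnt signalling during myogenesis by ADAMTSL2, a secreted glycoprotein related to the ADAMTS proteases. The labels name 1 hairpin per group and do not say whether a line was a clone or a pool, so loss of Adamtsl2 and any other difference between the lines cannot be told apart. They also do not say whether replicates were separate cultures, so p-values measure the spread between these libraries, which may be technical.

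Small leucine-rich proteoglycans bind fibrillar collagens and set the diameter and spacing of their fibrils, and several also bind growth factors of the TGF-β and BMP families. By sequence they fall into classes. Decorin, biglycan and asporin form class I, of which decorin and biglycan carry chondroitin or dermatan sulfate chains and asporin carries none. Fibromodulin, lumican, PRELP and osteomodulin form class II, whose typical chain is keratan sulfate, and osteoglycin belongs to class III. In muscle, decorin and biglycan lie in the connective tissue around the fibres, and decorin is known to bind and restrain myostatin and TGF-β.

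Recovered reads totalled 39913603 to 49367857 in knockdown libraries and 37346439 to 50329438 in control libraries. Adamtsl2 itself had 23.2, 21.7 and 7.83 normalised counts in the knockdown libraries, against 1325, 1266 and 1307 in the control libraries. Its log2 change was −6.26 ± 0.41 (SE, n = 3 each; limma, Benjamini-Hochberg adjusted p = 1.1e-04). The third knockdown library stood apart from the first and second: the correlation of log2 values over genes was 0.996 between the first and second knockdown libraries, 0.917 and 0.920 between the third and each of these, and 0.993 to 0.995 between control libraries. Values without that library are therefore given beside results that rest on it. The 11 skeletal muscle markers summed to 8909 to 10209.8 normalised counts in knockdown libraries, against 1332333 to 1350698 in control libraries, and all 11 fell. Over all genes tested by limma at an adjusted p of 0.05, 21.7% were called higher and 23.5% lower. Of 8 fibroblast and mesenchymal progenitor markers tested, 4 rose and 2 fell, and their sum was 61547 to 63920.1 in knockdown and 5974 to 6358 in control libraries. Most of the knockdown sum was Cd34, Ly6a and Clec3b, with means of 22713, 19025 and 17325 in knockdown cells. Within that list Ly6a, Cd34, Clec3b and, at a low level, Fap rose, Pi16 and Col15a1 fell, and Dpt changed by 0.02 (adjusted p = 0.918). Pdgfra changed by 0.47 (adjusted p = 0.325), or by 0.89 without the third knockdown library (adjusted p = 2.9e-06). Of 3 tenocyte markers tested, Tnmd and Mkx rose by 4.39 and 5.75 at low levels, and Scx, which held nearly all of the list's sum, fell by 0.53 on the log2 scale. The call of Scx was lost in 5 of 6 fits that left out 1 library, with adjusted p-values up to 0.114. The tenocyte sums were 4185 to 5246 in knockdown and 5562 to 6574 in control libraries. Of 3 osteoblast and chondrocyte markers tested, Runx2 and Sox9 rose, calls lost in 2 and 3 of the 6 fits that left out 1 library (adjusted p-values up to 0.0552 and 0.121). Their list summed to 4622, 4500.2 and 9068 in the knockdown libraries, against 2601 to 2999 in control libraries, so the highest sum was that of the third knockdown library alone. The smooth muscle and pericyte list, of which 2 rose and 1 fell, summed to 98601 to 113135 in knockdown and 239950.3 to 272034 in control libraries. Acta2, which held most of that sum, fell by 1.63, while Rgs5, at a low level, and Cspg4 rose by 2.23 and 1.17. The call of Cspg4 was lost in 5 of 6 fits that left out 1 library. Pdgfrb and Myh11 changed by 0.57 and 0.98 and did not pass the test, and Pdgfrb was called at 0.92 without the third knockdown library. The epithelial list summed to 1948 to 2716 in knockdown and 44.7 to 58.1 in control libraries, nearly all of it Krt14, which rose by 6.04, while Cdh1 did not pass the test. The part of these shifts in the results below was not tested, and in such bulk RNA a change in the share of cells of a type and a change in RNA per cell cannot be told apart.

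Of the 8 genes, 6 rose in knockdown cells, namely Omd, Dcn, Prelp, Ogn, Aspn and Fmod, none fell, and Bgn and Lum did not pass the test. All 8 had at least 10 normalised counts in at least 3 libraries and so entered the fit. Among all 16245 genes tested by limma at an adjusted p of 0.05, 45.2% were called, 21.7% as higher and 23.5% as lower, so many genes outside the family changed too. On the recovered reads edgeR and DESeq2 also called 6 of the 8 genes higher and none lower. Over all genes edgeR called 45.2% (23.2% higher, 22.0% lower) and DESeq2 53.0% (27.2% higher, 25.8% lower). The median log2 change of the 8 genes was 1.95, against −0.00 over all genes tested. Knockdown and control values did not overlap for 7 of the 8 genes, 6 with every knockdown library higher and 1, Lum, with every knockdown library lower. Over all genes tested, 62.6% showed no overlap, 30.0% higher and 32.7% lower in knockdown libraries. Without the third knockdown library 7 of the 8 rose and 1 fell, and the median was 1.97, where 78.5% of all genes were called, 38.6% as higher and 39.9% as lower.

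**Figure D1:**
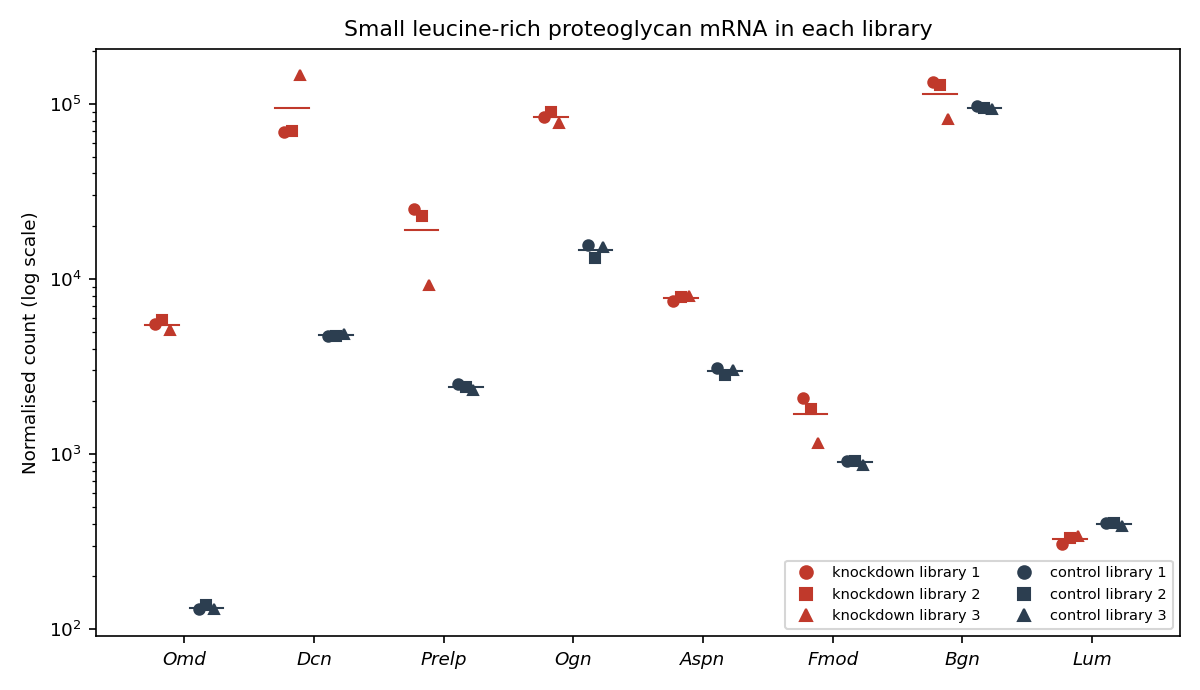
Normalised counts (log axis) of the 8 proteoglycan genes in each library, with knockdown libraries left of control libraries and a bar at each group mean. Omd, Dcn, Prelp, Ogn, Aspn and Fmod were higher in all 3 knockdown libraries than in any control library, the values of Bgn overlapped, and Lum was lower in all 3 knockdown libraries.

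**Figure D2:**
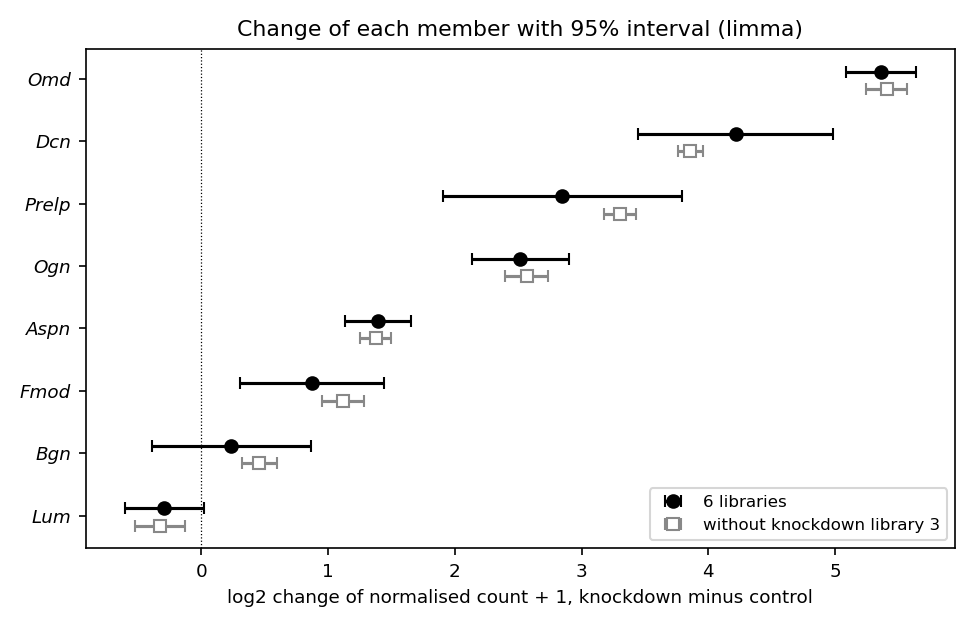
Log2 change, knockdown over control, of each of the 8 genes, with its 95% confidence interval, from all 6 libraries and without the third knockdown library. Changes ran from 5.36 for Omd to −0.29 for Lum, and the intervals of Bgn and Lum crossed 0 when all 6 libraries were used.

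Among the class I genes, Dcn encodes decorin, which binds collagen I fibrils and growth factors. It had 68597, 69622 and 145067 normalised counts in knockdown libraries, against 4717, 4720.1 and 4854 in control libraries. Every knockdown library was far above every control library, and the third knockdown library was the highest by a wide margin. The means were 94429 ± 43857 in knockdown and 4764 ± 78.3 in control cells (SD, n = 3 each), a ratio of 19.8, or 14.5 without the third knockdown library. The log2 change was 4.22 ± 0.31 (SE; limma adjusted p = 1.7e-04), and 340 of the genes tested, 2.09%, had a larger rise. Dcn stayed called when each library was left out in turn, with adjusted p-values up to 0.00238.

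Biglycan, encoded by Bgn, is the closest relative of decorin and is also a ligand of Toll-like receptors when released from the matrix. Bgn had 132694, 127620.1 and 81840.3 normalised counts in knockdown libraries, against 96854, 94221 and 93310.3 in control libraries. The first and second knockdown libraries lay above all controls and the third lay below them, so the groups overlapped. Its log2 change of 0.23 ± 0.26 had a 95% confidence interval of −0.39 to 0.86 (limma adjusted p = 0.497). Without the third knockdown library it was 0.46 ± 0.06 (adjusted p = 5.4e-05), a ratio of means of 1.37. Whether Bgn was called thus depended on that library.

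Asporin, encoded by Aspn, binds collagen and, in human and mouse cartilage, TGF-β. Aspn had 7478, 7929.7 and 7964 normalised counts in knockdown libraries, against 3080.3, 2813 and 3009.9 in control libraries. Libraries within each group lay close to each other and the groups did not overlap. The means were 7791 ± 271 in knockdown and 2968 ± 139 in control cells (SD, n = 3 each), a ratio of 2.63. On the log2 scale the change was 1.39 ± 0.11 (limma adjusted p = 1.8e-04) and 1.38 ± 0.05 without the third knockdown library.

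Among the class II genes, Omd, encoding osteomodulin, a keratan sulfate proteoglycan known from bone and dentin, changed most of the 8. It had 5522, 5797 and 5140.1 normalised counts in knockdown libraries, against 129.7, 138 and 130.2 in control libraries. The control libraries held a low but measurable level, and the spread within each group was small beside the gap between them. The means were 5486 ± 329.7 in knockdown and 132 ± 4.49 in control cells (SD, n = 3 each), a ratio of 41.4. The log2 change was 5.36 ± 0.11 (limma adjusted p = 3.7e-06), and 168 of the genes tested, 1.03%, rose more.

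PRELP, encoded by Prelp, has a basic amino-terminal region that binds heparan sulfate and lacks the glycosaminoglycan chains of its relatives. Prelp had 25018, 22897 and 9274 normalised counts in knockdown libraries, against 2525, 2426 and 2323 in control libraries. The third knockdown library was the lowest of its group and still above every control. The ratio of means was 7.86, and 9.88 without the third knockdown library. The log2 change was 2.85 ± 0.39 with all libraries (limma adjusted p = 0.00178) and 3.30 ± 0.06 without that library. The deposited gene set also holds Gm15851, an antisense transcript whose exons overlap those of Prelp over 350 bp. The strand setting of the counting is not given in the sources used here, so reads in that stretch cannot be assigned to either gene, and Gm15851 had 41.3 normalised counts on average in knockdown cells.

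Fibromodulin, encoded by Fmod, binds collagen I and takes part in collagen cross-linking. Fmod had 2102, 1806 and 1163 normalised counts in knockdown libraries, against 911, 917 and 863 in control libraries. All knockdown libraries were higher, the third by the smallest step. The means were 1690.3 ± 480.5 in knockdown and 897 ± 29.8 in control cells (SD, n = 3 each), a ratio of 1.88. The log2 change was 0.87 ± 0.23 (limma adjusted p = 0.0245). The call was lost in 5 of the 6 fits that left out 1 library, with adjusted p-values up to 0.0876, and kept without the third knockdown library, where the change was 1.12 ± 0.07 (adjusted p = 2.5e-07).

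Lumican, encoded by Lum, organises collagen fibrils in the cornea and skin. Lum had 305, 334 and 341 normalised counts in knockdown libraries, against 405, 404 and 390.5 in control libraries. Every knockdown library was lower than every control, by a small margin. The ratio of means was 0.817 and the log2 change was −0.29 ± 0.13, with a 95% confidence interval of −0.60 to 0.02 (limma adjusted p = 0.109). Without the third knockdown library the change was −0.32 ± 0.09 (adjusted p = 0.00685), which passed the test.

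In class III, Ogn encodes osteoglycin, also called mimecan, a matrix protein of bone, heart and connective tissue that is also secreted by muscle cells. Ogn had 84029, 89353 and 78079 normalised counts in knockdown libraries, against 15642, 13143 and 15234 in control libraries. The groups were well apart and the third knockdown library lay near the other two. The means were 83820.1 ± 5640.0 in knockdown and 14673 ± 1340.3 in control cells (SD, n = 3 each), a ratio of 5.71. Its log2 change was 2.52 ± 0.16 (limma adjusted p = 9.0e-05), and 929 of the genes tested, 5.72%, rose more.

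The third knockdown library departed from the mean of the first and second in opposite directions within the family. It held 2.10 times their level of Dcn, and 0.387, 0.595 and 0.629 times their level of Prelp, Fmod and Bgn. For Omd, Ogn, Aspn and Lum it held 0.908, 0.901, 1.03 and 1.07 times their level. The departures of Dcn and Prelp, 1.07 and −1.37 on the log2 scale, exceeded the median absolute departure over all genes tested, 0.73, and that of Fmod, −0.75, lay just above it. Dcn and Prelp were nevertheless called with all 6 libraries, whereas limma called Bgn and Lum only without that library. For Lum the third library lay near the first and second, and the change itself moved little. It was −0.29 ± 0.13 with all libraries and −0.32 ± 0.09 without the third, a fit in which 78.5% of all genes tested were called.

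Levels were compared between genes per kilobase of merged exon. In knockdown cells Ogn had the highest level, 32666 ± 2198 normalised counts per kb (SD, n = 3), followed by Bgn at 18700.0 ± 4593 and Dcn at 16175 ± 7512. Prelp at 5273 ± 2363, Aspn at 3309 ± 115 and Omd at 2439 ± 147 came next, and Fmod at 511 ± 145 and Lum at 133 ± 7.75 were lowest. The ranges of Bgn and Dcn overlapped, as did those of Prelp and Aspn, so the order within those pairs did not exceed the spread between libraries. In control cells Bgn was first at 15543 ± 302, then Ogn at 5718 ± 522, Aspn at 1261 ± 58.9, Dcn at 816 ± 13.4 and Prelp at 671 ± 27.9. Fmod at 271 ± 9.00, Lum at 163 ± 3.37 and Omd at 58.9 ± 2.00 followed, and no neighbours in the control order overlapped. Omd thus stood last of the 8 in control cells and sixth in knockdown cells. Bgn has 6099 bases of merged exon but a longest transcript of 2666 bases, and with transcript length Bgn was first in knockdown cells at 42780.0 ± 10507 per kb, with a range that overlapped that of Ogn.

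The 8 genes together made up 0.778 ± 0.0353% of all normalised counts in knockdown libraries and 0.255 ± 0.0057% in control libraries (SD, n = 3 each), a ratio of 3.05. Per kilobase, Bgn held 23.5 ± 5.42% of the family sum in knockdown cells, against 63.5 ± 1.38% in control cells. Ogn held 41.2 ± 1.94% in knockdown cells, against 23.3 ± 1.51% in control cells. The share of Dcn was 14.8, 14.8 and 32.1% in the knockdown libraries and 3.33 ± 0.119% in control libraries. Omd held 3.08 ± 0.122% in knockdown cells, against 0.241 ± 0.0153% in control cells. Aspn held 4.18 ± 0.189% in knockdown and 5.14 ± 0.101% in control cells. The ratio of Dcn to Bgn per kilobase was 0.540, 0.570 and 1.85 in knockdown libraries, against 0.0509, 0.0523 and 0.0543 in control libraries. The shares depended on the length used. With the longest transcript, Bgn held 39.6 ± 7.97% in knockdown cells, above Ogn at 30.4 ± 0.959%, against 79.5 ± 0.947% for Bgn and 12.8 ± 0.949% for Ogn in control cells. With that length the share of Aspn was 3.13 ± 0.246% in knockdown and 2.85 ± 0.0830% in control cells, the opposite order, and the groups overlapped. The ratio of Dcn to Bgn was then 0.294, 0.310 and 1.01 in knockdown libraries, against 0.0277, 0.0285 and 0.0296 in control libraries.

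**Figure D3:**
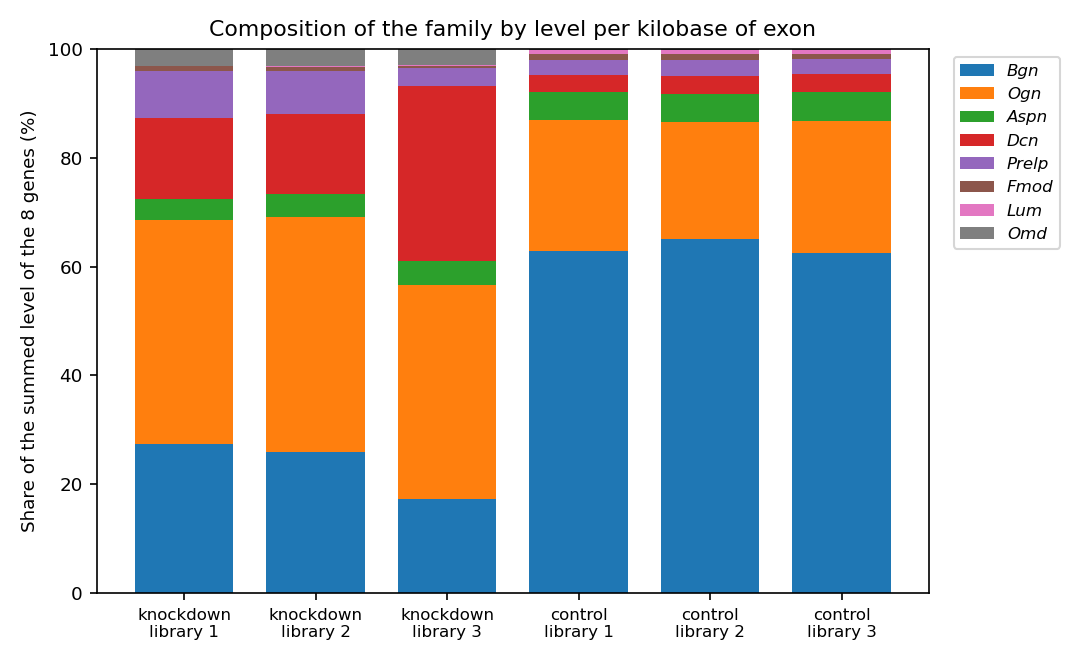
Share of each gene in the summed level per kilobase of the 8 genes, in percent, for each library, knockdown libraries left of control libraries. With merged exon length, Bgn made up 23.5% on average in knockdown libraries, where Ogn averaged 41.2%, and 63.5% in control libraries; with the longest transcript Bgn stood above Ogn in knockdown libraries too.

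Of the 8 genes, 7 lie in 3 chromosomal clusters and Bgn lies alone on chromosome X, and all 8 are protein-coding. In the GRCm38 build, with GENCODE annotation, Aspn (chr13:49544443-49567565), Omd (chr13:49582462-49592822) and Ogn (chr13:49608046-49624501) follow each other on the plus strand. With Ecm2, a leucine-rich gene that lies before Aspn, they lie within 120 kb. The span lies inside Cenpp, a centromere protein gene on the minus strand, whose exons overlap those of Aspn over 7 bp. Fmod (chr1:134037254-134048277, plus strand) and Prelp (chr1:133910304-133921414, minus strand) lie on chromosome 1. Dcn (chr10:97479609-97518143) and Lum (chr10:97565128-97572703), both on the plus strand, lie on chromosome 10, and Bgn spans chrX:73483602-73495933 on the plus strand.

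The chromosome 13 genes all rose but to different extents, and their promoter sequences are shown with that of Bgn, which was the most abundant of the 8 in control cells and was not called. Each run is the 300 bases from 250 before to 50 after the gene's start in RefSeq for GRCm38.p6, on the plus strand. The runs are Omd chr13:49582212-49582511, Ogn chr13:49607765-49608064, Aspn chr13:49544193-49544492 and Bgn chrX:73483351-73483650. For Ogn and, slightly, for Bgn the RefSeq start lies before the GENCODE start given above. The table of promoters held 6 of the 8 genes, all but Dcn and Lum. Capitals mark every match, on either strand, to the E-box CANNTG, which myogenic bHLH factors such as MyoD bind, the TATA box TATAAA, the AP-1 site TGANTCA and the core CTTTGA bound by the TCF/LEF factors of Wnt signalling.
Omd: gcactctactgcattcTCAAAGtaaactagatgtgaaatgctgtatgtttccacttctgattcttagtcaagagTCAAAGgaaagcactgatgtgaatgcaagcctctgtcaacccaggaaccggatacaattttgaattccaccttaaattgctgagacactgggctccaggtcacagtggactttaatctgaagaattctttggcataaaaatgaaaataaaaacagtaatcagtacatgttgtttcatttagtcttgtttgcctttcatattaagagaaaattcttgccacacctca
Ogn: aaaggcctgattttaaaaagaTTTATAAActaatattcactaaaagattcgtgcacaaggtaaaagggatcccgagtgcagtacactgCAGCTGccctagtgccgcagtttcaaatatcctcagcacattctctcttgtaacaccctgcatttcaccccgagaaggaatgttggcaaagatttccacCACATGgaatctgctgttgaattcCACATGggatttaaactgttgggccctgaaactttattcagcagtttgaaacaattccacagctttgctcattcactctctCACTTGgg
Aspn: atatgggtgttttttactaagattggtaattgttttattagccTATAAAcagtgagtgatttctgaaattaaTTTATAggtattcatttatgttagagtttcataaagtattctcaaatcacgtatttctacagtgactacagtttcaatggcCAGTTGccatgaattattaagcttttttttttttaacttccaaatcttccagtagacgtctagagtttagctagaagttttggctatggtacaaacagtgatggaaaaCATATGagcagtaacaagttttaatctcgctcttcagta
Bgn: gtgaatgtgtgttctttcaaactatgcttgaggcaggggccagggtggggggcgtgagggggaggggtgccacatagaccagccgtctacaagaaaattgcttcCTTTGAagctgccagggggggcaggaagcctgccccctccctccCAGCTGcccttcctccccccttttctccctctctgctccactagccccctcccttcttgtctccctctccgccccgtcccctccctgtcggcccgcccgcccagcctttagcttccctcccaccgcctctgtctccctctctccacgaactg

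The Omd window held no E-box and 2 matches to CTTTGA, both on the minus strand and so printed as the reverse complement, starting at bases 17 and 75. The Ogn window held 4 E-boxes and 2 overlapping TATAAA matches, which began at bases 22 and 24. The Aspn window held 2 E-boxes and 2 TATAAA matches, and the Bgn window held 1 E-box and 1 CTTTGA. The Fmod and Prelp windows held 1 E-box each, and no AP-1 match was in any of the 6. Of 32851 promoters of the same length, 72.3% held an E-box, 13.6% TATAAA, 7.81% an AP-1 match and 16.0% CTTTGA. The windows of Omd, Ogn and Aspn were 37.7, 42.3 and 31.0% G and C, against 63.7% for Bgn and a median of 52.7% over all promoters. A match describes letters only and is no evidence of binding.

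Within each cluster the genes changed to unequal extents. The log2 ratio of Omd to Aspn was −0.51 in knockdown cells, against −4.47 in control cells, a difference of 3.97. The log2 ratio of Ogn to Omd was 3.93 ± 0.01 in knockdown cells, against 6.78 ± 0.18 in control cells (SD, n = 3 each), a difference of −2.84. The ratio of Ogn to Aspn differed by 1.12 and that of Fmod to Prelp by −1.98. Dcn over Lum gave 8.08 in knockdown cells and 3.57 in control cells, a difference of 4.51 between genes whose starts and ends lie within 93.1 kb. For each of these 5 ratios the groups did not overlap, and the exact two-sided permutation test gave p = 0.1, also after adjustment over the 5, which is the smallest that 3 against 3 libraries allow.

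The measured genes nearest to the clusters did not all follow them. On chromosome 13, Ecm2, which encodes a leucine-rich matrix protein next to Aspn, had 1002, 1009.6 and 1327 normalised counts in knockdown libraries, against 171, 154 and 143 in control libraries. It rose by 2.82 ± 0.17 (limma adjusted p = 7.9e-05), so that 4 adjoining leucine-rich genes on that chromosome were all called higher. With all 6 libraries the genes on either side did not pass the test: Ippk, an inositol phosphate kinase, changed by −0.41 (adjusted p = 0.075), Nol8 by −0.30 (0.448) and the enclosing Cenpp by −0.28 (0.707). All 3 were called lower without the third knockdown library, at −0.27 (adjusted p = 0.00349), −0.63 (1.1e-05) and −0.90 (6.5e-04). In that fit 78.5% of all genes tested were called, 39.9% as lower, so such a call sets a gene little apart. On chromosome 10 the nearest measured genes on either side of Dcn and Lum, Btg1 and Atp2b1, were distant. Btg1 ended at base 96622809 and Atp2b1 began at base 98914406, and genes without values may lie nearer. Btg1 and Atp2b1 changed by −0.24 (adjusted p = 0.137) and 0.10 (0.842). Both were called lower without the third knockdown library, Btg1 at −0.18 (adjusted p = 0.00392) and Atp2b1, with its direction turned, at −0.33 (1.2e-04). On chromosome 1, Optc, the neighbour of Prelp and the gene of opticin, another member of the wider family, fell by 1.04 on the log2 scale, and Atp2b4 and Btg2 fell by 1.47 and 0.87. The long noncoding genes Gm15851, which overlaps Prelp, and Gm1627, beside it, rose by 3.06 and 3.05 from levels of at most 5.70 normalised counts in control libraries. Because exons of Gm15851 and Prelp share 350 bp and the strand setting is not given, the rise of Gm15851 cannot be told apart from that of Prelp. Beside Bgn, Atp2b3 fell by 2.31, a call lost in 2 of 6 fits that left out 1 library, with adjusted p-values up to 0.0615. Its levels were low, at 4.15, 5.02 and 7.83 normalised counts in knockdown libraries, against 49.0, 15.2 and 39.9 in control libraries. Haus7 changed by −0.42 (adjusted p = 0.103), or by −0.59 without the third knockdown library, which passed the test (adjusted p = 2.2e-05). The medians over all tested genes of chromosomes 1, 10, 13 and X were −0.18, −0.04, −0.01 and 0.07.

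**Figure D4:**
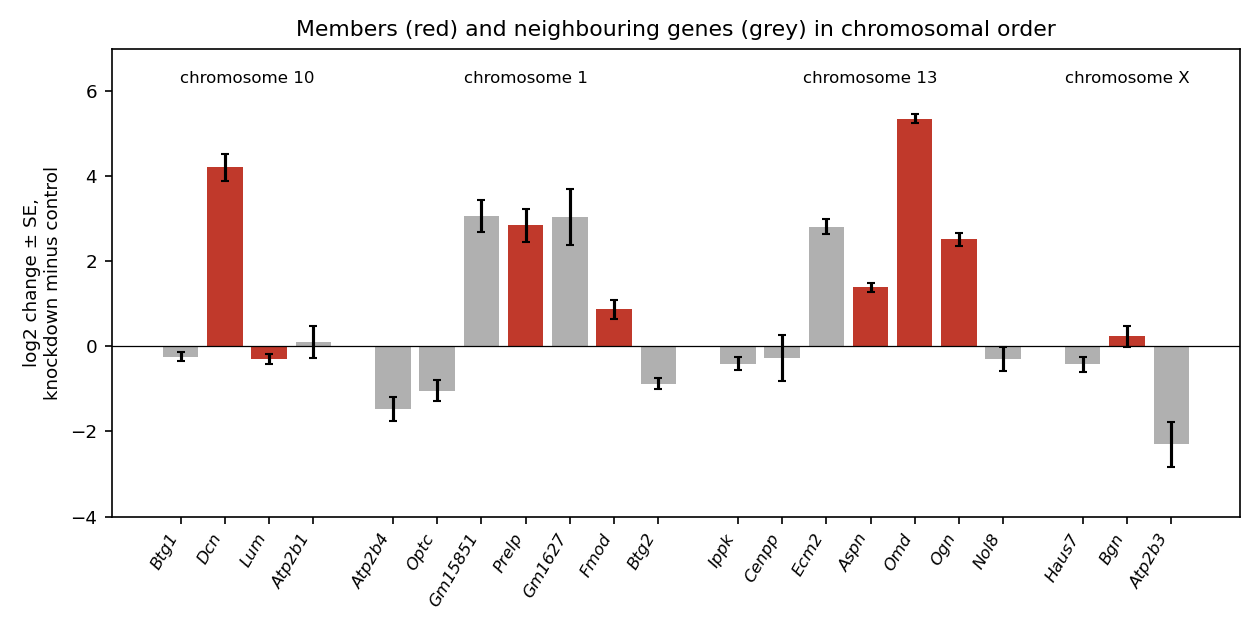
Log2 change, knockdown over control, of the 8 genes and of the nearest measured genes in genomic order, with standard errors, for the 3 clusters and for Bgn. Ecm2, Aspn, Omd and Ogn on chromosome 13 all lie above 0, whereas Lum lies below 0 next to Dcn at 4.22.

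The genes with the closest profile to each of the 8 were ranked by the root mean square difference of centred log2 values over the 6 libraries, over 11071 genes that averaged 100 normalised counts or more. For Dcn the nearest were Tspan8, Ccl8 and Blnk, at 0.167, 0.21 and 0.21. For Omd they were Phex, Pid1 and Gbp2b, at 0.11, 0.14 and 0.15, so both of the strongest risers had no neighbour within 0.1. For Ogn they were Sqor, Apbb1ip and Plin2, from 0.06 to 0.08. For Prelp they were Anpep, Lonrf3 and Mmp2, from 0.03 to 0.06. Among those nearest to Fmod were Pkd2 and Fam3a, at 0.06 and 0.07. Nearest to Bgn were Cers2, Poldip3 and Fkbp9, to Aspn Rnf167, Fbxo6 and Tmem39b, and to Lum Mettl16, Arfgap1 and Ralb, all within 0.04. No member of the family was among the 3 nearest genes of another, and the closest pair of members, Bgn and Fmod, stood at 0.32. Because this measure grows with any difference in the size of change, it cannot show whether members vary together.

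Among further leucine-rich proteoglycan and related genes outside the 8, of 8 tested 5 rose, 1 fell and 2 did not pass the test, with a median log2 change of 1.01. By comparison, 21.7% of all genes tested were called higher and 23.5% lower. Besides Ecm2, Podnl1, which encodes a podocan-like protein, had 4903, 4765 and 3141 normalised counts in knockdown libraries, against 547, 515 and 538 in control libraries, a rise of 2.97 ± 0.20 (limma adjusted p = 1.1e-04). Podn, its relative, rose by 3.16 ± 0.58 at a low level, 70.4 ± 24.2 normalised counts in knockdown and 7.86 ± 4.97 in control cells (SD, n = 3 each). Optc had 29.0, 31.8 and 22.4 in knockdown libraries, against 51.2, 65.7 and 56.1 in control libraries (adjusted p = 0.0174), and lost its call in 3 of 6 fits that left out 1 library, with adjusted p-values up to 0.0721.

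The enzymes that build the chains carried by these core proteins were called in both directions. Of 24 tested genes of chondroitin and dermatan sulfate synthesis, 8 rose, 4 fell and 12 did not pass the test, with a median of 0.51. Without the third knockdown library 14 rose and 8 fell. Over all genes 45.2% were called with 6 libraries, 21.7% as higher and 23.5% as lower. Without that library 78.5% were called, 38.6% as higher and 39.9% as lower. In both fits rises were more frequent in the list than over all genes and falls less frequent, and these differences were not tested. The sulfotransferase gene Chst7 rose by 5.61 ± 0.40 (limma adjusted p = 1.5e-04), to 1895 ± 572 normalised counts in knockdown cells, against 39.3 ± 19.5 in control cells. Chst12, which sulfates chondroitin at another position, rose by 1.86 ± 0.12 (adjusted p = 9.6e-05). Dse, the epimerase that turns chondroitin into dermatan sulfate, rose by 1.16 ± 0.19 (adjusted p = 0.00371). Other sulfotransferase genes fell: Chst13 had a log2 change of −4.58 and Chst3 of −3.26 (adjusted p = 1.3e-04 and 7.0e-04). Of 5 tested genes of keratan sulfate synthesis 3 rose, none fell and 2 did not pass the test, with a median of 0.90. Over all genes 21.7% were called higher. Without the third knockdown library all 5 rose, where 38.6% of all genes were called higher. Chst1, the keratan sulfate galactose sulfotransferase, had 2922, 2988 and 3321 normalised counts in knockdown libraries, against 259, 322 and 247 in control libraries, a rise of 3.48 ± 0.15 (adjusted p = 2.4e-05). The galactosyltransferase gene B4galt1 rose by 1.41 ± 0.20 (adjusted p = 0.00223).

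Among 11 tested genes whose products process procollagen and proteoglycan propeptides or cleave the core proteins, 8 rose, 2 fell and 1 did not pass the test, with a median of 1.84. The shares over all genes tested were 21.7% higher and 23.5% lower. Pcolce2, an enhancer of procollagen C-proteinase, rose by 3.74 ± 0.36 (limma adjusted p = 4.7e-04). Mmp14, a membrane-bound metalloproteinase, had 74239, 72979.8 and 144315 normalised counts in knockdown libraries, against 15099, 16355 and 15177 in control libraries, a rise of 2.57 ± 0.30 (adjusted p = 9.7e-04). Bmp1, whose product removes the propeptide of biglycan, fell by 1.34 on the log2 scale (adjusted p = 0.0213). The call of Bmp1 was lost in 3 of 6 fits that left out 1 library, with adjusted p-values up to 0.0756. Adamts4, an aggrecanase that also cleaves several small proteoglycans, fell by 2.20 (adjusted p = 0.00107).

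Among the collagens and other matrix partners, of 15 tested 2 rose, 4 fell and 9 did not pass the test, with a median of −0.58. Without the third knockdown library 6 rose and 7 fell, and the median was −0.05. Both counts lie near the background, in which 45.2% of all genes were called with 6 libraries, 21.7% as higher and 23.5% as lower. Without that library 78.5% of all genes were called, 38.6% as higher and 39.9% as lower. Col1a1, the main chain of collagen I to which decorin binds, had 13552, 12103 and 6475 normalised counts in knockdown libraries, against 310993, 342955 and 298390.2 in control libraries. It fell by 4.96 (adjusted p = 9.7e-05), while Col1a2, the other chain of the same protein, fell by 1.32 (adjusted p = 0.00386). Collagen III, encoded by Col3a1, changed by −0.81 and did not pass the test (adjusted p = 0.184), but was called at −0.38 without the third knockdown library (adjusted p = 0.00178). Col14a1, a fibril-associated collagen known to bind decorin, rose by 5.72 ± 0.60 (adjusted p = 6.2e-04), to 1344, 1063 and 395 normalised counts in knockdown libraries, against 7.63, 24.0 and 17.1 in control libraries. The elastin gene Eln rose by 2.19 ± 0.25 at a low level.

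Of 16 tested growth factors and receptors that the proteoglycans bind, 8 rose, 2 fell and 6 did not pass the test, with a median of 0.86. In the background of all genes tested, 21.7% were called higher and 23.5% lower. Bmp4, a ligand to which biglycan binds, had 5934, 5939.7 and 12844 normalised counts in knockdown libraries, against 179, 209.7 and 193 in control libraries, a rise of 5.30 ± 0.32 (limma adjusted p = 8.2e-05). Tlr2, a receptor of soluble biglycan, rose by 1.86 ± 0.13 (adjusted p = 1.5e-04). Tgfb1 changed by 0.04 ± 0.11 (adjusted p = 0.782). Wisp1, a matricellular Wnt target whose product binds decorin and biglycan, had 5420.4, 5359 and 5402 normalised counts in knockdown libraries, against 13905, 15653 and 13392 in control libraries, and fell by 1.40 on the log2 scale (adjusted p = 2.6e-04). Tgfb2 fell by 0.50 (adjusted p = 0.0218), a call lost in 5 of 6 fits that left out 1 library, with adjusted p-values up to 0.0875.

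Of 13 tested proteoglycans outside the leucine-rich family, 6 rose, 1 fell and 6 did not pass the test, with a median of 0.71. Without the third knockdown library 8 rose and 3 fell. Among all genes 45.2% were called with 6 libraries, 21.7% as higher, and 78.5% without that library, 38.6% as higher. The glypican gene Gpc6 rose by 2.09 ± 0.19 (limma adjusted p = 3.3e-04) and the testican gene Spock2 by 1.65 ± 0.18 (adjusted p = 6.8e-04). Gpc1, another glypican, had 21257, 19845 and 3577 normalised counts in knockdown libraries, against 70735, 71499.8 and 70436 in control libraries. Its fall of 2.63 (adjusted p = 0.0242) was 1.79 without the third knockdown library, and the call was lost in 3 of 6 fits that left out 1 library, with adjusted p-values up to 0.0789.

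**Figure D5:**
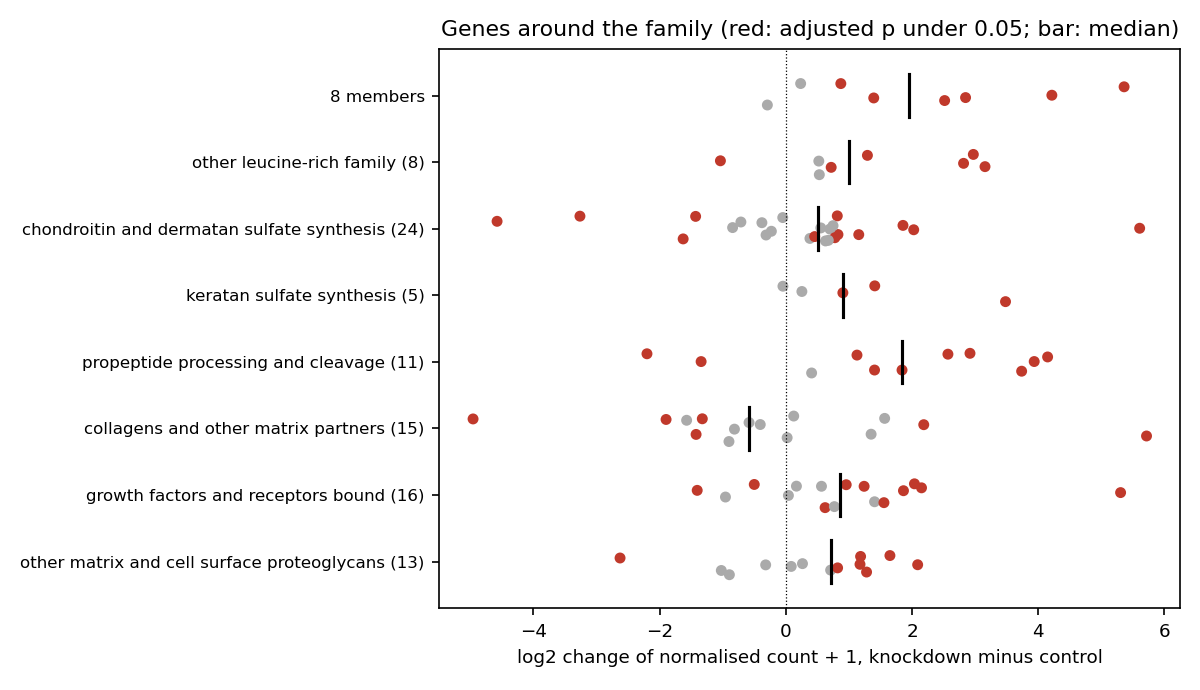
Log2 change, knockdown over control, of each tested gene of the 8 proteoglycans and of the 7 gene lists, with the median of each list. The 8 proteoglycans had a median of 1.95, the propeptide and cleavage genes 1.84 and the collagens and matrix partners −0.58.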

How the data were processed

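Messenger RNA of 6 libraries, 3 per group, was sequenced as paired reads of 150 bp, per the labels. The build GRCm38 and the tools Trimmomatic 0.36, Subread 1.5.2 with featureCounts, and DESeq2 are named in the submitters' processing notes. An aligner, an annotation release and a strand setting were not given in the sources used here. Values in the deposited table are a signal: gene counts that the authors divided by a size factor per library; the authors' log2 fold change, p-value and adjusted p-value stand beside it, per the file headers. Whole reads were recovered: 100% of values were whole within 0.01 reads, 1 read being worth 0.829 to 1.26 units.

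Log2(value + 1) was modelled in limma 3.58.1 (R 4.3.3), using a mean-variance trend and no block, two-sided, with Benjamini-Hochberg adjustment over 16245 genes with at least 10 in at least 3 libraries; 609 were not tested. This scale understates changes of low genes. It called 7342 genes, and edgeR 4.0.16 on recovered reads 7344. DESeq2 1.42.0, other filters, pseudocounts, scalings, a replicate block and leaving out each library were alternatives, and the scripts were tested on simulated data. Exon lengths came from GENCODE M21, in which 16812 genes were found by identifier. Error bars and ± are SD for levels and SE for changes.

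The 8 genes and the lists were chosen with earlier results of these data known. Genes named are the 8, Adamtsl2, up to 2 called list members per direction by smallest adjusted p, 3 nearest profiles per gene and chromosomal neighbours, of which 1 is not reported here; Podn, Dse, Col3a1, Tgfb1 and the cell type markers named were added after their values were seen.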

Additional observations from a re-analysis of the deposited data

How the results depend on the processing

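All 8 genes kept their direction under each of the 17 alternatives; 5 to 7 were called higher when 1 library was left out (Fmod lost in 5 such fits) and 6 under the others with all libraries. Without the third knockdown library, limma and edgeR (the edgeR fit was chosen after seeing the data) called 6269 and 6489 genes higher and 6485 and 6459 lower, and 1 of the 8 genes, Lum, lower (−0.32 and −0.30), with Bgn at 0.46 and 0.48 called higher. In both fits 14 chondroitin and dermatan sulfate genes rose and 8 fell, 5 keratan sulfate genes rose, 6 collagens and partners rose and 7 fell, and 3 other proteoglycans fell. Leaving out each library gave 2443 to 6269 genes higher and 2648 to 6485 lower, and 0 to 1 of the 8 genes lower. Over those fits the counts of list genes were 6 to 14 higher and 3 to 8 lower for chondroitin and dermatan sulfate, 2 to 5 higher for keratan sulfate, and 2 to 6 higher and 2 to 7 lower for collagens. Lower calls ranged from 0 to 1 for other leucine-rich genes, 1 to 2 for propeptide processing, 1 to 3 for growth factors and 0 to 3 for other proteoglycans. Upper-quartile scaling left 1 growth factor lower, and DESeq2 called 2 other proteoglycans lower. With longest transcript length Bgn ranked 1 and Ogn 2 in knockdown cells, and the mean share of Bgn in the family sum was 39.6% there (chosen after seeing the data). The cause of these shifts was not tested.

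Same-numbered knockdown and control libraries had correlations of deviations of 0.0169, 0.105 and 0.143. Those of differently numbered libraries ran from −0.147 to 0.116. With 3 libraries per group, 1 of which stood apart, these values cannot decide whether the numbers pair libraries. With a replicate block 3010 genes rose, 3301 fell and 6 of the 8 genes rose (Fmod adjusted p = 0.0332), while 0 other leucine-rich genes (Optc 0.0561) and 1 growth factor fell. Depth limited no result on the 8 genes, all of which had over 100 reads in each library.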

Other observations

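Lum lies close to the threshold in these 6 libraries. The authors' deposited table lists Lum at a log2 change of −0.29 with an adjusted p of 0.0468, which passes 0.05, whereas limma gave −0.29 with an adjusted p of 0.109, and edgeR and DESeq2 on the recovered reads gave adjusted p-values of 0.149 and 0.0700. For Bgn the authors' deposited table lists 0.27 with an adjusted p of 0.350, and for Fmod 0.91 with 0.00179.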
